A study of Drosophila melanogaster with 2 samples.

Results

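Nuclear genes for the respiratory complexes of mitochondria were examined in a chromatin immunoprecipitation experiment followed by sequencing (ChIP-seq). The genes were chosen by name from the Ensembl annotation of the fly genome. Protein-coding nuclear genes whose symbol starts with ND- (complex I), Sdh and a capital letter (complex II), UQCR- (complex III), COX and a digit (complex IV) or ATPsyn (complex V) were taken, a rule that uses the symbol alone and no measured value. This gave 87 genes of 13945 protein-coding genes on the arms that hold regions. Of these, 63 carry the plain name of a subunit and are called main-form genes here. The other 24 end in L, or in L and a digit, and are paralogs of a subunit gene.

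The respiratory chain lies in the inner mitochondrial membrane. Complex I takes electrons from NADH and complex II takes them from succinate. Complex III passes them from ubiquinone to cytochrome c, and complex IV passes them on to oxygen. Complex V, the ATP synthase, uses the proton gradient that complexes I, III and IV build. Most subunits are encoded in the nucleus, and their genes are known as broadly expressed genes. Many of the duplicated genes with a final L are known in the fly for expression in testis. The names of many complex I subunits come from the first residues or the mass of the bovine protein, and their roles are known mainly from the bovine and human enzymes.

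The samples were 2 biological replicates, which form 1 group. Each was made from whole Drosophila melanogaster embryos of both sexes, aged 0 to 24 hours, of a transgenic line (her-GFP) that carries her, a zinc-finger gene of the sex determination pathway, with GFP fused to the C-terminus. Sonicated chromatin of 200 to 800 bp was precipitated with an antibody against GFP. There was no second genotype, treatment or time, so no comparison between groups and no test was made, and the values below are descriptions of this 1 line. An untagged line was not analysed here, and the labels name the same possible control for both replicates.

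The authors' lists on the dm6 build comprise relaxed lists of 30000 regions, made per replicate and for the pooled replicates, and 3930 regions past an irreproducible discovery rate (IDR) threshold, called the thresholded list here. Each region has a summit, the position of its highest signal, and a deposited signal value whose scale is not stated. The 3930 thresholded regions were exactly the pooled regions with a signal of 90.8 or more. A gene counts as recovered where the distance from a summit to any annotated transcription start site (TSS) of the gene is at most 1 kb, and its value is the signal of the strongest such summit. The lists do not give read depth, and no counting interval is given. As the lists hold regions of whole embryos, recovery in few cells and weak recovery in all cells cannot be told apart.

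Sequences at the summits are shown first, because the results turn on where the strongest summits lie. The letters are those of the RefSeq genome (Release 6, dm6), read 5′ to 3′ on the strand of the named gene, and capitals mark an E-box (CAGCTG) or the core of the DNA replication-related element, DRE (ATCGAT). The first set holds the summits of the highest-ranked members for which sequence is shown. COX7AL2 is chr2L:2192384-2192484 on the minus strand, ND-ASHI is chrX:6679335-6679435 on the minus strand and COX5A is chr3R:11819501-11819577 on the plus strand. The COX5A window ends earlier because exonic bases were limited. None of these windows holds either motif.
COX7AL2: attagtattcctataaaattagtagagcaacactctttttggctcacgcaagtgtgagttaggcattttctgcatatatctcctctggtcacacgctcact
ND-ASHI: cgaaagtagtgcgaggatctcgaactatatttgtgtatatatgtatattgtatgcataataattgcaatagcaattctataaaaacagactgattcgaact
COX5A: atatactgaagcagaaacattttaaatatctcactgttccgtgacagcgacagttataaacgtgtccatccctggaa

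The second set holds 30 bases around the E-box of the thresholded main-form genes that have one within 50 bp of the summit, and was chosen after the motif counts were seen. The E-box centre lay 4 bp from the summit in SdhD, 22 bp in ND-13B, 28 bp in UQCR-C2, 38 bp in ATPsynE and 48 bp in both ND-24 and ND-42. SdhD has a DRE core 2 bases before its E-box. The intervals are chr3R:23760593-23760622 (minus) for SdhD, chr3L:10694064-10694093 (minus) for ND-13B, chr3L:16584218-16584247 (plus) for UQCR-C2, chr3R:14327064-14327093 (plus) for ATPsynE, chrX:17632306-17632335 (plus) for ND-24 and chr3R:22027460-22027489 (plus) for ND-42.
SdhD: acaaATCGATgaCAGCTGactgcactagcc
ND-13B: agcactgggcaaCAGCTGttacaaaataaa
UQCR-C2: taccataagtcaCAGCTGgtactcggtgtg
ATPsynE: tgtcagttttgaCAGCTGttttaaggttat
ND-24: tccgccgaaaatCAGCTGtaagcggtgctt
ND-42: agttaaacacccCAGCTGtgctgtgtagtg

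The third set places main-form genes beside their paralogs, as the bases just before the gene start, because the copies differed in whether a region was recovered. COX5B (chr2L:6557700-6557799, plus) and COX5BL (chr2L:6559331-6559430, plus) are neighbours, and ATPsynCF6 (chr3R:23356065-23356164, minus) and ATPsynCF6L (chr3L:5012134-5012233, minus) lie on different arms. COX5B and ATPsynCF6 had a thresholded summit within 1 kb, and neither paralog had a pooled region there.
COX5B: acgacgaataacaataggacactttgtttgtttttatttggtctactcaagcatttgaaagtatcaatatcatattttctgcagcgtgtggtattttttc
COX5BL: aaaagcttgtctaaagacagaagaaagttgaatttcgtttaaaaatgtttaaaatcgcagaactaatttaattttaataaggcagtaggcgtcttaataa
ATPsynCF6: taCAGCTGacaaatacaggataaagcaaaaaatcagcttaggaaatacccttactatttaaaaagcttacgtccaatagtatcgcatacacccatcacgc
ATPsynCF6L: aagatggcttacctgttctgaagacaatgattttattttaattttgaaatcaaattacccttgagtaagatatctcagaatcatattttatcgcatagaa

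Most main-form genes were recovered and most of their paralogs were not. Of the 63 main-form genes, 59 (93.7%) had a summit within 1 kb in the pooled relaxed list, where 62.1% of all protein-coding genes did. Of the 24 paralogs, 8 (33.3%) had one. In the relaxed lists of both replicates, 57 main-form genes (90.5%) and 4 paralogs (16.7%) had a summit, against 57.3% of all protein-coding genes. In the thresholded list 21 main-form genes (33.3%) and 1 paralog (4.17%) had a summit, against 23.3% of all genes. Over all 87 members the thresholded share was 25.3%, close to that background.

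**Figure D1:**
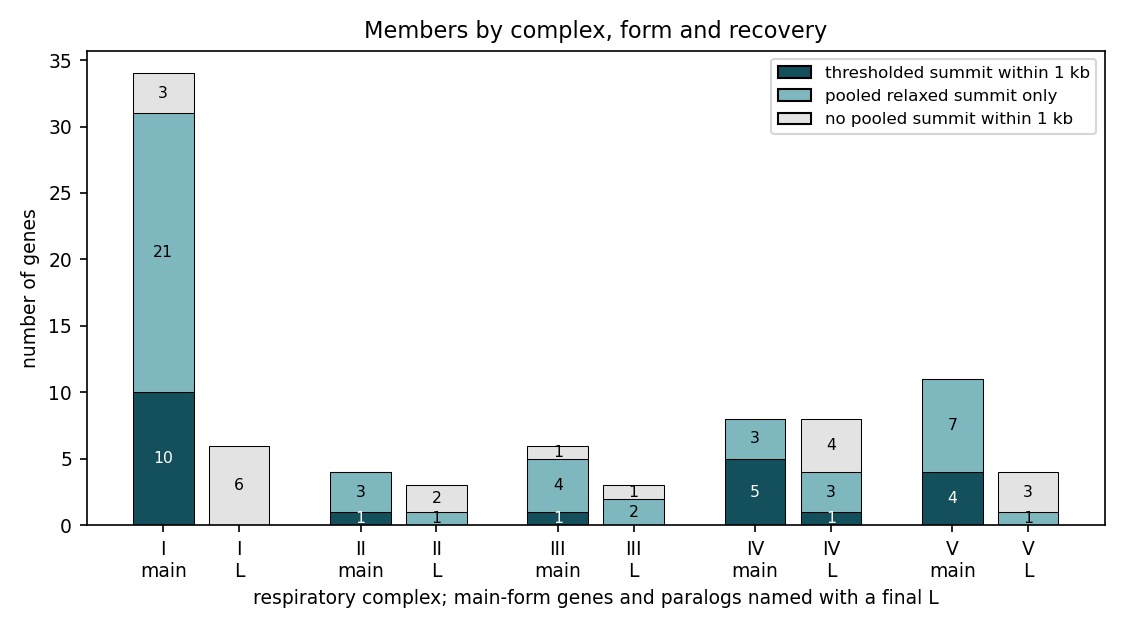
Number of genes of each respiratory complex (I to V), main-form genes and paralogs with a final L in separate bars, split by whether a thresholded summit, only a pooled relaxed summit or no pooled summit lay within 1 kb of a TSS. Dark segments are present in the main-form bar of every complex, and the pale segment is the whole bar for the 6 paralogs of complex I.

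Signals past the threshold were mostly in the lower part of that list. Over the 59 main-form genes in the pooled list, the median pooled signal was 81.9, against 69.5 over all protein-coding genes in it. The 21 thresholded main-form genes had a median signal of 111, against 146 over all 3254 protein-coding genes with a thresholded summit, and ranged from 95.7 to 275. Their median rank in the thresholded list was 2880 of 3930. Among the strongest 1965 thresholded regions, 9 main-form genes (14.3%) had a summit, against 12.8% of all genes. Among the strongest 7860 pooled regions 43 main-form genes (68.3%) had one, against 37.9%. The step from 21 to 43 main-form genes places 22 of them among the next 3930 pooled regions below the threshold.

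ND-B18 shows how close to the threshold some members lay. It is a complex I subunit, and its pooled signal was 90.5, just below the lowest thresholded value. SdhC, a membrane anchor of complex II, followed with a pooled signal of 87.6, then ATPsynG with 87.5 and ND-B14.5A with 86.8. At the other end of the thresholded members, COX7B had 95.7, ND-15 had 96.8 and ATPsynCF6 had 96.9. Of the 38 main-form genes with only a relaxed pooled summit, 18 had the same −log10 q-value, 4.13, as every thresholded region. That value was shared by 6689 of the 30000 pooled regions, so it does not mark closeness to the threshold. The share with it was not counted over all genes with only a relaxed summit.

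Complex I, the largest of the complexes, had 10 of 34 main-form genes (29.4%) in the thresholded list, near the 23.3% of all protein-coding genes, and 31 (91.2%) in the pooled list, against 62.1%. The strongest was ND-MWFE, a small membrane subunit, with a pooled signal of 275, 133 in replicate 1 and 147 in replicate 2. Its region ran from 13158356 to 13158635 on 2R. ND-ASHI, an accessory subunit of the membrane arm, had 260, with 154 in replicate 1 and 107 in replicate 2, in a region from 6679246 to 6679493 on X. Both were within 1.5-fold between the replicates, with ratios of replicate 1 to replicate 2 of 0.901 for ND-MWFE and 1.44 for ND-ASHI.

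ND-51 carries the site that binds NADH and was the strongest of the 7 core subunits encoded in the nucleus. Its pooled signal was 203, with 95.5 in replicate 1 and 111 in replicate 2 (2L, 6062830 to 6062980). ND-24, the other core subunit in the thresholded list, had 110, 65.2 and 52.7 in the same order (X, 17632071 to 17632474). The remaining core subunits lay below the threshold. ND-20 had a pooled signal of 75.3, ND-30 had 68.3, ND-23 had 61.5 and ND-49 had 27.3, with ND-75 between the last of these, so that all 7 had a pooled region and 2 were thresholded. ND-49 had no summit within 1 kb in replicate 2.

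Accessory subunits of complex I supplied the other thresholded genes, 8 of 27. ND-42 had a pooled signal of 142, with 89.1 in replicate 1 and 54.2 in replicate 2. ND-B17 had 109, with 56.9 and 51.6, and ND-SGDH had 109, with 69.7 and 42.2. ND-13B had 102, with 52.5 and 48.7. These accessory genes were higher in replicate 1 in all 4 cases. ND-B14.5B had 101, with 48.8 in replicate 1 and 51.5 in replicate 2, and ND-15 had 96.8, with 45.2 and 51.5, so these were slightly higher in replicate 2. ND-B14.7 had the lowest pooled signal of any main-form gene, 25.7. Apart from it, ND-B18 and ND-B14.5A, the accessory genes with only a relaxed pooled summit ranged from 31.0 in ND-B15 and 31.4 in ND-19 to 74.9 in ND-B17.2.

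Complex II is also the succinate dehydrogenase of the citric acid cycle, and all 4 of its genes had a pooled region. The 1 thresholded gene is 25.0% of them, close to the 23.3% of all genes. SdhD, a membrane anchor, had this summit, with a pooled signal of 134, and 70.1 in replicate 1 and 64.3 in replicate 2 (3R, 23760402 to 23760805). SdhC, SdhA (the flavoprotein) and SdhB (the iron-sulfur subunit) stayed below the threshold at 87.6, 83.0 and 82.5. All 4 were found in both replicates. In SdhA the summit lay 851 bp upstream, nearest to a TSS of cer.

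Complex III had 1 thresholded gene of 6 (16.7%, against 23.3% of all genes). UQCR-C2, a core protein of the complex, had a pooled signal of 142, with 79.8 in replicate 1 and 60.5 in replicate 2 (3L, 16584059 to 16584462). UQCR-14 had 86.7, UQCR-C1 62.8, UQCR-6.4 62.0 and UQCR-Q 43.4, and all of these were found in both replicates. UQCR-11 had no summit within 1 kb in any list.

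Complex IV, cytochrome c oxidase, had 5 of 8 main-form genes (62.5%, against 23.3% of all genes) in the thresholded list and all 8 in the pooled list. COX5A had a pooled signal of 212, with 92.9 in replicate 1 and 122 in replicate 2 (3R, 11819447 to 11819634). COX6B had 203, with 98.7 and 101 (X, 19744326 to 19744484). COX7C followed with 111, 65.0 and 51.7, and COX5B with 101, 52.6 and 49.7. COX7B, the weakest thresholded member at 95.7, was the least even between the replicates among the thresholded genes, with 31.5 in replicate 1 and 62.4 in replicate 2. COX8, COX7A and COX4 lay below the threshold with 68.5, 65.6 and 39.6.

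Complex V had 4 of 11 genes thresholded (36.4%, against 23.3% of all genes) and all 11 in the pooled list. ATPsynF had a pooled signal of 184, with 90.1 in replicate 1 and 86.4 in replicate 2 (2R, 24599702 to 24600105). ATPsynC, which encodes the proton-carrying ring subunit, had 180, with 108 and 76.1 (3R, 31219437 to 31219604). ATPsynE had 106, with 49.0 and 55.8, and ATPsynCF6 had 96.9, with 52.8 and 46.9. The catalytic subunit gene ATPsynbeta, on chromosome 4, had a pooled signal of 83.9, with 47.4 in replicate 1 and 35.0 in replicate 2, and so lay below the threshold. The other genes below the threshold were ATPsynG at 87.5, ATPsynO at 81.9, ATPsynD at 79.3, ATPsynB at 54.8, ATPsyngamma at 45.1 and ATPsyndelta at 39.0. The shares of the 5 complexes rest on 4 to 34 genes each, and no test of a difference between them was made.

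**Figure D2:**
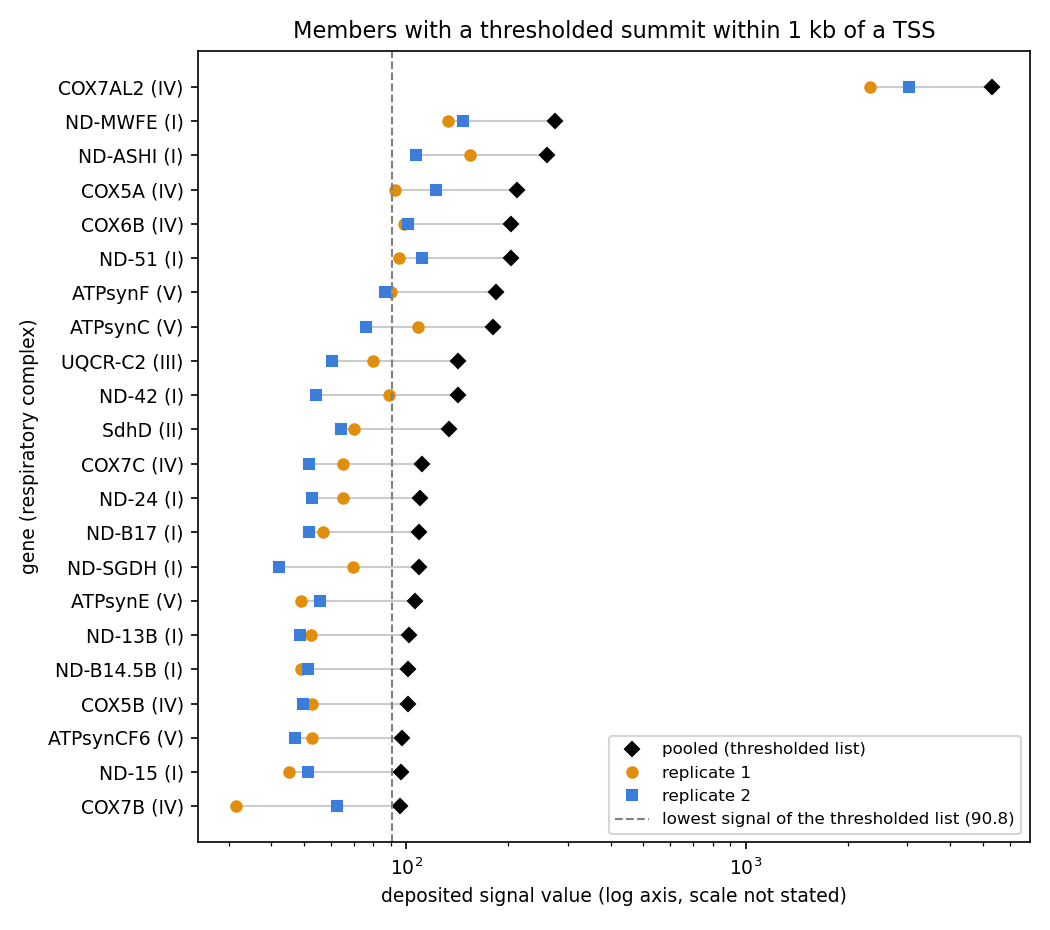
Deposited signal value (log axis) of the strongest summit within 1 kb of a TSS for the 22 members in the thresholded list, in the pooled list (diamonds), replicate 1 (circles) and replicate 2 (squares), with the complex in brackets. COX7AL2, at 5322, lies far to the right of the main-form genes, which span 95.7 to 275.

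The replicates gave similar orders of the members. Across the 57 main-form genes with a summit in both relaxed lists, the Spearman correlation was 0.796, and across the 7995 protein-coding genes with both values it was 0.820. These are descriptions across genes that share the libraries. The ratio of replicate 1 to replicate 2 had a median of 1.15 in the main-form genes and 1.14 in all genes. It was within 1.5-fold in 44 of the 57, and in 5728 of the 7995. The largest ratio was 2.44, in ND-13A, and the smallest 0.482, in ND-B8. The summits of the replicates lay within 100 bp of each other in 36 of the 57 (63.2%), against 60.9% of all such genes. They did so in 18 of the 21 thresholded main-form genes. As that share was not counted over all thresholded genes, whether it is particular to the members is not known.

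**Figure D3:**
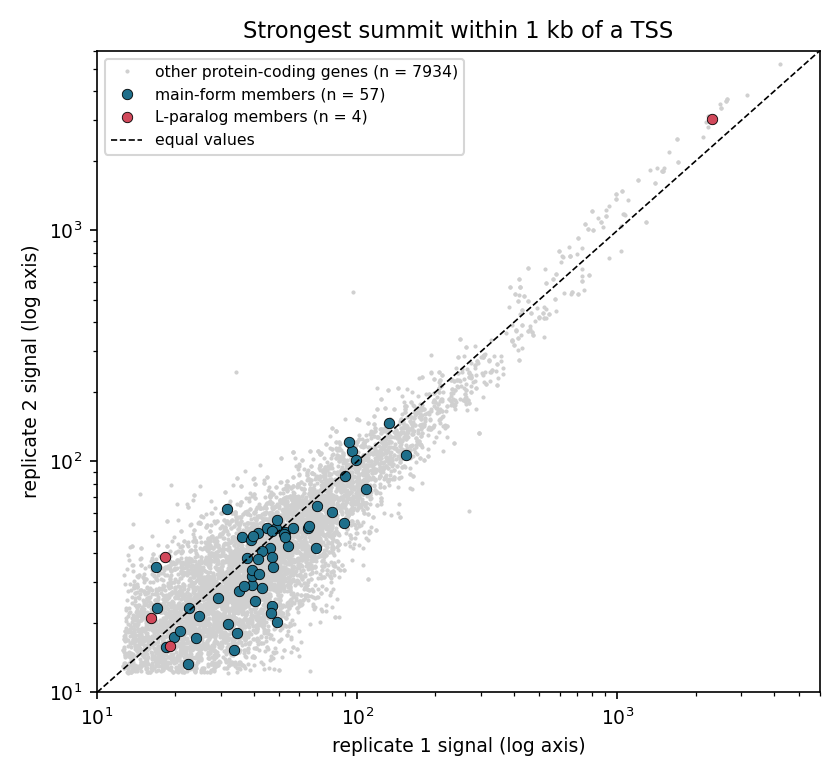
Signal of the strongest summit within 1 kb of a TSS in replicate 1 (x, log axis) and replicate 2 (y, log axis) for every protein-coding gene with a summit in both relaxed lists; members are drawn as large circles and the dashed line marks equal values. The 57 main-form genes lie along the line within the cloud, with medians of 43.0 in replicate 1 and 41.0 in replicate 2 (42.8 and 37.0 over all genes drawn), and COX7AL2 (2320 and 3025) lies apart at the upper right.

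The summits of the main-form genes lay near annotated TSSs, and some lay nearer to a TSS of a neighbour. Of the 21 thresholded genes, 12 (57.1%) had the summit within 100 bp of their own TSS, against 46.9% of all thresholded genes. In 16 (76.2%) it lay upstream of that TSS, against 75.7% of all thresholded genes. The median position was 48 bp upstream, against 76 bp upstream over all thresholded genes. The TSS nearest to the summit was that of another gene in 10 of the 21. This share was not counted over all thresholded genes, so whether it is particular to the members is not known. With summits counted only for the gene with the nearest TSS, 2355 of the 3254 thresholded protein-coding genes still had one, 16.9% of all genes. Of the main-form genes, 12 of the 21 still had one, 19.0% of the 63. ND-ASHI is among these through another summit, with a signal of 113, that lay 35 bp from a TSS of its own.

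The neighbours include genes of the same pathway. ND-ASHI shares its summit with Fum1, the fumarase of the citric acid cycle, a TSS of which lies 522 bp away on the other strand. The summit lay 267 bp from the start of ND-ASHI and 255 bp from that of Fum1. ND-42 shares its summit with Cchl, which encodes the cytochrome c heme lyase, 229 bp away on the other strand, and the summit lay 53 bp from the Cchl start and 282 bp from that of ND-42. At ND-MWFE the summit was 33 bp from TppII, a peptidase gene, and 188 bp from ND-MWFE. The other 7 were ND-51 (nearest CG13994), ND-B14.5B (toc), ND-SGDH (RhoGAP68F), COX5B (IFT52), COX7B (Sec3), COX7C (oys) and ATPsynF (CG3548). For these genes the lists do not tell to which of the neighbouring starts a region belongs.

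In the other 11 a TSS of the gene itself was nearest to the summit. Distances are to that TSS, which can lie inside the gene. In SdhD it lay 4 bp upstream of the TSS, in ND-13B 7 bp and in ATPsynCF6 12 bp downstream, and in UQCR-C2 12 bp upstream. It lay 20 bp upstream in ATPsynC, 27 bp in ATPsynE, 48 bp in ND-24, 60 bp in COX5A and 69 bp in ND-B17, and 71 bp downstream in ND-15. In UQCR-C2, ATPsynC, ATPsynE, ND-24 and COX5A the summit was upstream of an inner TSS and inside the annotated gene. ND-15 runs from 114726 to 156030 on the plus strand of 2L, and its summit was at 155406. In COX6B it lay 40 bp upstream of a TSS that CG18809 shares. Close to the limit of 1 kb, the thresholded summit lay 758 bp away in ND-SGDH and 853 bp in ND-B14.5B, and just outside it lay 1303 bp away in ND-B14 (signal 98.6) and 1623 bp in ND-39 (signal 117).

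**Figure D4:**
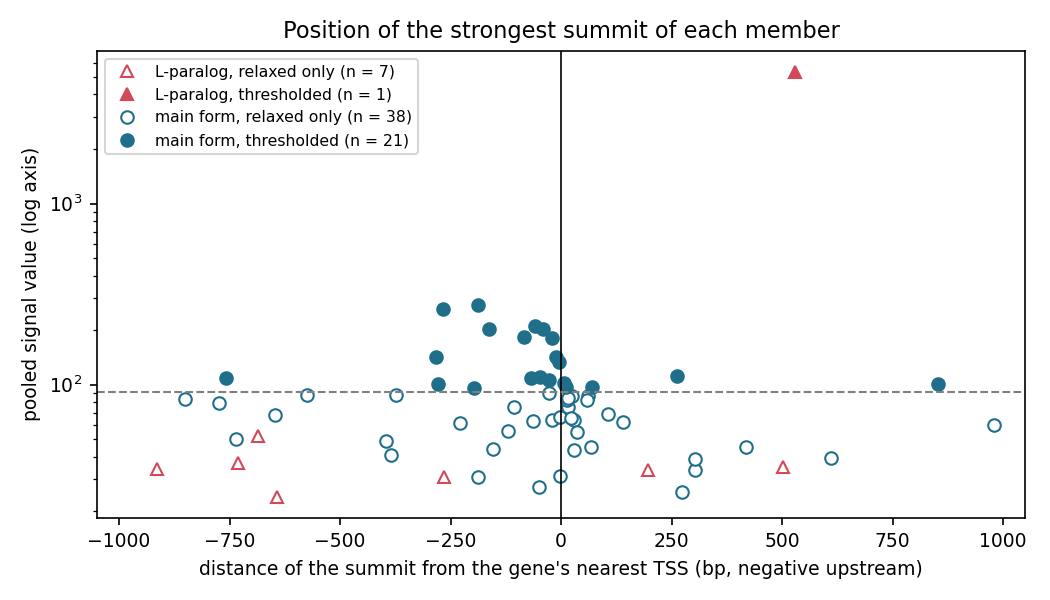
Distance of the strongest pooled summit from the nearest TSS of the gene (x, bp, negative upstream) and its pooled signal (y, log axis); filled symbols are thresholded, open symbols relaxed only, circles main-form genes and triangles paralogs. Within 500 bp of the TSS lie 19 of the 21 thresholded main-form genes, and 2736 of all 3254 thresholded protein-coding genes. The same holds for 31 of the 38 main-form genes with only a relaxed summit. Of the 8 paralogs, 7 of them relaxed only, 6 lie beyond 500 bp.

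Many respiratory genes have a neighbour that starts close by on the other strand. Such a start lay within 1 kb upstream of 40 of the 63 main-form genes (63.5%), of 38.2% of all protein-coding genes and of 4 of the 24 paralogs (16.7%). Among genes with such a neighbour, 13 of 40 main-form genes (32.5%) had a thresholded summit, against 36.3% of all such genes, and 38 of 40 (95.0%) a pooled one, against 82.2%. Among genes without one, 8 of 23 (34.8%) had a thresholded summit against 15.3%, and 21 of 23 (91.3%) a pooled one against 49.7%. Paralogs had a pooled summit in 3 of the 4 genes with such a neighbour (75.0%) and in 5 of the 20 without one (25.0%). The number of annotated starts also differed, since 1 TSS was annotated for 31 of the main-form genes (49.2%), 21 of the paralogs (87.5%) and 73.5% of all genes. Among genes with 1 TSS, 28 of 31 main-form genes (90.3%) and 6 of 21 paralogs (28.6%) had a pooled summit, against 55.1%. For the thresholded list these were 7 of 31 (22.6%) and 0 of 21, against 17.5%.

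Main-form genes and paralogs were paired by symbol. The 20 pairs rest on 18 main-form genes, as ND-51 and COX7A are each in 2 of them. Of these pairs, 14 had a pooled region within 1 kb of the main-form gene and none at the paralog, 5 had one at both, and 1 had one at the paralog alone. In the 5 pairs with both values the main-form gene had the higher pooled signal in 4, and COX7A with COX7AL2 was the exception. ND-51 had 203, while ND-51L1 and ND-51L2 had no summit within 1 kb in any list. The same held for ND-24 (110) and ND-24L, ATPsynbeta (83.9) and ATPsynbetaL, and SdhA (83.0) and SdhAL.

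**Figure D5:**
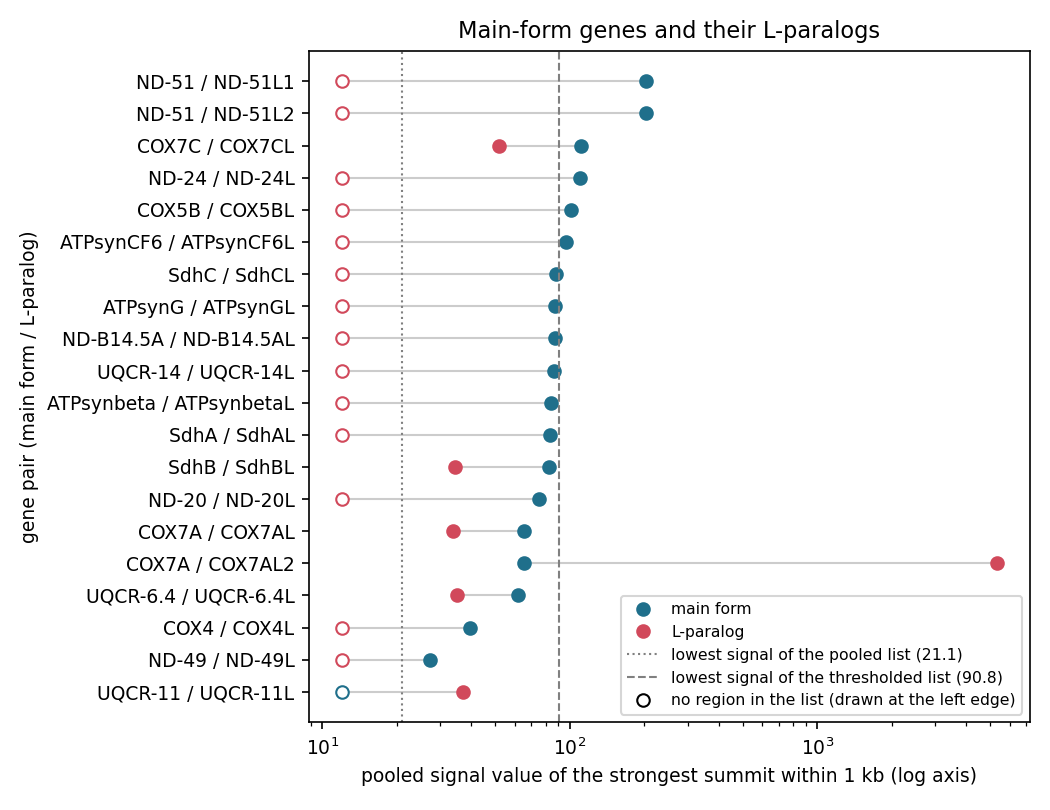
Pooled signal (log axis) of the strongest summit within 1 kb of a TSS for 20 pairs of a main-form gene and a paralog with a final L; open circles at the left edge have no region in the pooled list. In 14 pairs only the main-form gene has a value, in 5 both have one, with COX7AL2 above COX7A, and UQCR-11L has a value where UQCR-11 has none.

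In all, 14 of the 24 paralogs (58.3%) had no summit within 1 kb in any of the 3 relaxed lists, against 30.7% of all protein-coding genes. These were ND-24L, ND-49L, ND-51L1, ND-51L2, ND-B14.5AL, SdhAL, SdhCL, UQCR-14L, COX4L, COX6AL2, COX6CL, ATPsynCF6L, ATPsynGL and ATPsynbetaL. ND-20L and COX5BL had a summit in replicate 1 alone, with signals of 14.3 and 19.0, where the lowest signal of that list was 12.5. The lists end at a fixed number of regions, so a missing region is not a signal of 0.

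Apart from COX7AL2, the paralogs with a pooled region had low values, and some lay beside a stronger neighbour. COX7CL had a pooled signal of 52.0, with 18.3 in replicate 1 and 38.7 in replicate 2. It starts next to COX7C on the same strand, and its summit was nearest to a TSS of COX7C. UQCR-11L had 36.9 (nearest Acsl), UQCR-6.4L 35.1, SdhBL 34.3 (nearest Flacc), COX7AL 33.9, COX6AL 30.8 and ATPsynepsilonL 24.1 (nearest gammaSnap2). Only UQCR-6.4L, COX6AL, COX7CL and COX7AL2 had summits in both replicates, and in the first 3 of these the summits of the replicates lay over 800 bp apart, at 1298, 1097 and 844 bp.

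COX7AL2 (FBgn0085201, 2L, 2192525 to 2197912, minus strand) was the exception among the paralogs. It is annotated with 3 TSSs, and the summit at 2192434 had a pooled signal of 5322, rank 8 of 3930, with 2320 in replicate 1 and 3025 in replicate 2. That summit lay 529 bp from the nearest TSS of COX7AL2 and beyond the end of the gene, and 48 bp from a TSS of CG10874. A second thresholded summit, at 2193590 with a signal of 1670 (rank 44), lay 580 bp from its TSS and had COX7AL2 as the gene with the nearest TSS. Within 500 bp of a TSS, no thresholded summit was found for any of the 24 paralogs.

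The main-form genes in no list lay together. ND-MLRQ, ND-AGGG and UQCR-11 start between 23339326 and 25120709 on 3L, in the part of the arm next to the centromere. No pooled region has its summit beyond 23338180 on that arm, and none of the 29 protein-coding genes that start from 23339326 on had a pooled summit within 1 kb. The other 10 main-form genes on 3L all had one, against 63.4% of the other 2710 genes of the arm. The relaxed list of each replicate had 1 region in the stretch from 23339326 on. The edge of the stretch was set at the start of ND-MLRQ after the values were seen. Whether reads could be placed in that stretch was not tested. ND-B16.6, the fourth main-form gene without a pooled region, had a summit in replicate 2 alone, with a signal of 12.4.

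Promoter windows (250 bp before to 50 bp after the annotated gene start, both strands) were searched for listed motifs. The gene start is the outermost one, so a summit near another TSS of the gene can lie outside this window. The main-form genes held the core of motif 1 (GGTCACACT) in 14 of 63 promoters (22.2%, against 6.05% of all protein-coding genes), among them ND-MWFE, COX5A and ATPsynC. The E-box CAGCTG was found in 19 (30.2%, against 17.7%) and the DRE (TATCGATA) in 9 (14.3%, against 9.36%). The DRE core ATCGAT, which every DRE holds, was found in 20 (31.7%, against 23.3%). TATAAA was found in 39 (61.9%, against 45.8%) and GAGAG in 10 (15.9%, against 29.7%). The paralogs held motif 1 in 1 of 24, the E-box in 2, the DRE in 0, the DRE core in 6 (25.0%), TATAAA in 9 (37.5%) and GAGAG in 10 (41.7%). The NRG element, a palindrome described for nuclear respiratory genes of the fly, was in no member's promoter window and in 0.875% of all promoters.

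Within 50 bp of the summit the E-box was present at 6 of 21 thresholded main-form summits (28.6%), the genes printed above, and at 8.45% of the summits of all genes with a thresholded summit. At the 38 main-form genes with only a relaxed summit it was present in 8 (21.1%), against 8.86% of all such genes. The DRE core was present at 4 of the 21 (19.0%, against 13.9%) and at 10 of the 38 (26.3%, against 9.69%). The motif 1 core was present at 0 of the 21 (against 2.64%) and 2 of the 38 (5.26%, against 2.42%). In the promoter windows 6 of the 21 hold it (28.6%, against 9.37% of all thresholded genes). GAGAG was present at 1 of the 21 (4.76%, against 13.8%) and 7 of the 38 (18.4%, against 13.5%). TATAAA was present at 4 of the 21 (19.0%, against 9.77%) and 4 of the 38 (10.5%, against 7.42%), and the full DRE at 1 of the 21 (4.76%, against 6.42%) and 4 of the 38 (10.5%, against 3.59%). The NRG element was at none of these main-form summits, and it was present at the summit counted for the paralog COX7CL, which is nearest to a TSS of COX7C. These are matches of letters in small numbers of windows, and neighbouring genes of a divergent pair share windows.

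Other genes of mitochondrial energy supply were counted in the same way, from short lists of named genes, to be read against the 23.3% thresholded and 62.1% pooled among all protein-coding genes. Respiratory genes under other symbols had a thresholded summit in 6 of 9, and all 9 had a pooled one. The strongest was Cyt-c-d, a cytochrome c gene, with a signal of 229, at a summit nearest to CG31808. Next came ox (a small subunit of complex III, 153, nearest to Dgkepsilon), blw (the alpha subunit of the ATP synthase, 123) and Cyt-c-p (the other cytochrome c gene, 110). In the citric acid cycle and pyruvate dehydrogenase list 7 of 12 were thresholded and all 12 were in the pooled list. They were led by Fum1 (260, the summit shared with ND-ASHI), the aconitase gene mAcon1 (258), and Idh3b (196) and Idh3g (146), subunits of the NAD-dependent isocitrate dehydrogenase.

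Of 5 matched assembly factor genes, 3 were thresholded, namely CIA30 (774, nearest to CG7601), Cox17 (108) and l(3)87Df (96.4, nearest to CG46280). Of 4 carriers of the mitochondrial membranes, 1 was, the phosphate carrier gene Mpcp2 (179), which is close to the 23.3% of all genes. Among 9 genes of regulators and mitochondrial transcription, 5 were thresholded and all 9 were in the pooled list, where all genes had 23.3% and 62.1%. These included Dref, the factor that binds the DRE (295, nearest to RpL13), srl, the fly relative of the PGC-1 coactivators (165), PolrMT, the mitochondrial RNA polymerase (137), and ewg, the relative of human NRF1 (118).

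Other housekeeping gene families give a scale for these counts. Of 73 genes of mitochondrial ribosomal proteins (symbols that start with mRpL or mRpS and a digit), 19 (26.0%) were thresholded, near the 23.3% of all genes, and 68 (93.2%) were in the pooled list, against 62.1%. Of 88 cytoplasmic ribosomal protein genes by the same kind of rule, 66 (75.0%) were thresholded and 81 (92.0%) pooled, with a median pooled signal of 188, against 81.9 for the main-form respiratory genes, 58.3 for the mitochondrial ribosomal protein genes and 69.5 for all protein-coding genes in the pooled list. No test of these differences was made.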

How the data were processed

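Regions came from 2 replicates of 1 group, so no test and no p-value is given, and no paired design exists. The authors deposited narrowPeak lists with a signal value per region (scale not stated) and a −log10 q-value, both the authors' own. Per the deposited notes, the lists were derived from alignments and a control, and thresholded regions from both replicates and the pooled list. No peak caller or aligner is given in the sources used here. The dm3 lists were not analysed.

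TSSs came from Ensembl release 115 and sequence from RefSeq, both Release 6 (dm6). All 87 members had the same interval in RefSeq, and no pooled summit lay outside the arm lengths. Annotated transposable elements were not treated as genes. Summits were assigned with Python 3.11.15, numpy 2.4.6 and pandas 2.3.3, and the assignment was tested on simulated data. The simulated summits lay only at genes far from any TSS of another gene, so summits between close neighbours were not tested. Sequence windows were shortened until at most 30 bases were exonic.

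The choice of this gene group, its naming rule and the lists was made with earlier results of these data known. ND-MNLL ends in L but is named for its residues, so it was counted as a main-form gene. Among the other genes, 10 of 15 assembly factor symbols matched no gene, and 3 symbols over all lists matched through an older name. Named members are all thresholded ones, all paralogs, those in no list, and the 4 highest and 4 lowest pooled signals among the other members, paralogs included. Further members were named after their values were seen. The closing section gives the effect of other distances, assignments and list lengths.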

Additional observations from a re-analysis of the deposited data

How the results depend on the processing

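No paired analysis was possible because the samples form 1 group. The count of 22 members with a thresholded summit (21 main-form genes and 1 paralog) stayed within 1.5-fold for 6 of the 9 other choices. These were distances of 200 bp, 500 bp and 2 kb, each replicate alone and the gene body. At the 3 distances the member shares were 18.4%, 21.8% and 33.3%, against 16.2%, 20.4% and 27.8% of all genes. For the gene body the share was 25.3%, against 25.0%. For a single replicate the strongest 3930 regions of its relaxed list were used, with no IDR threshold. Without replicate 1 the count was 26 (25 main-form genes), which is 29.9% of the members, against 23.3% of all genes. Without replicate 2 it was 19 (18 main-form genes), which is 21.8%, against 22.9%. It was 13 (12 main-form genes) when only the gene with the nearest TSS counted (14.9%, against 16.9% of all genes). For the strongest 1965 thresholded regions it was 10 (9 main-form genes), which is 11.5%, against 12.8%. For the strongest 7860 pooled regions it was 44 (43 main-form genes), which is 50.6%, against 37.9%. The paralog count was 0 within 500 bp, 0 within 200 bp and 3 within 2 kb (COX5BL, COX7AL2 and COX7CL). These 3 are 12.5% of the paralogs, against 27.8% of all genes within 2 kb. The median signal of the members, 122, was 134 within 500 bp, 113 with the nearest TSS only, 138 for the gene body and 203 for the strongest 1965 regions. These choices add or remove genes, and they can also change which summit counts for a gene that stays. With the nearest TSS only, ND-ASHI went from 260 to 113 and COX7AL2 from 5322 to 1670. Counting ND-MNLL as a paralog, a choice made after seeing the data, gave 21 of 62 and 1 of 25. The 61 members with a summit in both replicates ranged from 42 (200 bp) to 67 (2 kb). As shares these were 48.3% and 77.0%, against 36.2% and 64.9% of all genes.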
